A study of Homo sapiens with 34 samples.

Results

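The enzymes that write, copy and remove cytosine methylation were followed in H1 human embryonic stem cells (H1 ESCs, an established human line) during cardiac differentiation. The 8 genes were chosen by symbol and not by a threshold on their values, although earlier results of these data were known at the time. They were the DNA methyltransferase genes DNMT1, DNMT3A, DNMT3B and DNMT3L, the TET dioxygenase genes TET1, TET2 and TET3, and UHRF1. Of these 8, 7 had a row among the 23189 genes that could be named in the count table. No row could be matched to TET3, and it was not analysed here. Where a gene had several RefSeq rows, the row with the largest total count was used. All cells had been infected with lentivirus. Separate lines expressed shRNAs that target NKX2-5, ZEB2 and ZNF503 (NKX2-5 shRNA, ZEB2 shRNA and ZNF503 shRNA cells), and each line came from a single shRNA vector, picked for its knockdown, after puromycin selection. The WT cells had received either the empty vector or one with an shRNA to GFP, so they are controls for infection rather than untouched cells. Undifferentiated cells were sampled at day 0 and differentiating cells at days 2, 6 and 10, after CHIR99021 (a GSK3β inhibitor that activates Wnt signaling) during the initial day, IWP2 (a Wnt inhibitor) from day 2 through day 5, and insulin from day 7. The comparisons used 30 libraries in 15 groups of 2. For ZNF503 shRNA cells no day 10 library was analysed here, and WT and ZEB2 shRNA cells of day 10 are represented by replicates 3 and 4. NKX2-5 shRNA cells of day 10 and all groups of earlier days are replicates 1 and 2. A difference between these sets of samples cannot be told apart from that of line or day. The series calls the replicates biological without saying what they share, so p-values measure the spread between these libraries.

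In mammalian cells most methylated cytosines lie in CpG dinucleotides. DNMT1 restores methylation on the newly made strand after replication, and UHRF1 binds hemimethylated CpG and brings DNMT1 to it. DNMT3A and DNMT3B methylate unmodified sites, and DNMT3L is a catalytically inactive partner that stimulates them and is best known from germ cells and early embryos. TET1, TET2 and TET3 oxidize 5-methylcytosine to 5-hydroxymethylcytosine and beyond, which leads to loss of methylation either passively through replication or through excision by TDG and base repair. Human ESCs are known for high DNMT3B and TET1. Only transcript counts were measured here: neither enzyme activity nor methylation was.

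The CpG content before a listed start is shown for the pair of genes whose transcripts moved furthest in opposite directions, DNMT3B and TET2, and for the maintenance pair, DNMT1 and UHRF1, whose transcripts fell together. Each sequence is the 250 bases before a single listed transcription start of the gene, 5′ to 3′ on the gene's own strand, from RefSeq on build GRCh38.p14. That start was not matched to the RefSeq row counted, and other starts of these genes were not examined. A window may therefore lie away from the start in use, also inside the gene. Capitals mark every CpG, the dinucleotide these enzymes act on.
DNMT3B (chr20:32779602-32779851, plus strand, 3 CpG): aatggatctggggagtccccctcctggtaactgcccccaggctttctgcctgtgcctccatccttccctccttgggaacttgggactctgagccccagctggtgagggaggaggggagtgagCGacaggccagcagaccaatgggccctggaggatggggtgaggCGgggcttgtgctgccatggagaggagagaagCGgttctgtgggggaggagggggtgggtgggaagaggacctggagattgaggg
TET2 (chr4:105145625-105145874, plus strand, 10 CpG): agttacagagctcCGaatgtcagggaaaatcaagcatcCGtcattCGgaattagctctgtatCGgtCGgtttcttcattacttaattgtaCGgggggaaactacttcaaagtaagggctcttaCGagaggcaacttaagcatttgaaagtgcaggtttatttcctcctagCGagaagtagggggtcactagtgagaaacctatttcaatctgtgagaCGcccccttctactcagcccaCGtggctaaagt
DNMT1 (chr19:10194954-10195203, minus strand, 21 CpG): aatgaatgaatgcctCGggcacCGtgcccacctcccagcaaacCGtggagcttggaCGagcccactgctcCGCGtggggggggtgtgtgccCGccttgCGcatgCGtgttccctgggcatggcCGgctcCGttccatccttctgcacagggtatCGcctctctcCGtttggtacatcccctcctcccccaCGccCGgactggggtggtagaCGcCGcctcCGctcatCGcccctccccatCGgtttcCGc
UHRF1 (chr19:4909251-4909500, plus strand, 28 CpG): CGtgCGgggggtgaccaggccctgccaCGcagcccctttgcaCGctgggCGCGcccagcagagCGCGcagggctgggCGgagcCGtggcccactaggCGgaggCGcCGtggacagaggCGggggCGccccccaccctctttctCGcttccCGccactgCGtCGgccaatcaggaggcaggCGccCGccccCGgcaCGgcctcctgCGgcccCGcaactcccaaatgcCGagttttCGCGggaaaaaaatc

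In the window before the listed start, DNMT3B had 3 CpG and UHRF1 had 28, against a median of 11 over 27305 promoters of the same length. TET1 had 9, TET2 had 10, and DNMT1 and DNMT3A had 21 each. The motifs searched, on both strands of all promoters, were 2 E2F forms (TTTCCCGC and TTTGGCGC), an octamer (ATGCAAAT) and a GC box (GGGCGG). Among the analysed genes with a promoter in the table, matches were found in UHRF1 alone, for these windows only. UHRF1 held TTTCCCGC on the minus strand, starting 14 bases before the start, a form found in 1.42% of promoters, and the GC box at 2 places, a motif found in 42.3% of promoters. These are matches of letters, with no binding measured.

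On GRCh37, the build of the counts, DNMT1 lies at chr19:10244018-10341962 and UHRF1 at chr19:4903092-4962165, DNMT3A at chr2:25450724-25565459, DNMT3B at chr20:31350191-31397165 and DNMT3L at chr21:45666222-45682099, TET1 at chr10:70320094-70454244 and TET2 at chr4:106067032-106200973. All are protein-coding genes, and counts were taken over RefSeq gene regions. The rows used were NM_001130823 for DNMT1, NM_001048201 for UHRF1, NM_022552 for DNMT3A, NM_006892 for DNMT3B, NM_013369 for DNMT3L, NM_030625 for TET1 and NM_001127208 for TET2. Levels are given as counts per 1000000 (CPM) after TMM scaling, for each of the 2 libraries of a group. Where libraries of groups are said not to overlap, the share of all genes that did the same was not counted. Such statements describe the libraries and are no support for a call. Where genes are compared with each other, CPM was divided by the exonic length of the reference transcript in kilobases (CPM per kb). That transcript comes from another annotation (GENCODE) than the RefSeq rows counted, and its exons can differ from theirs. Levels and ratios between genes are therefore approximate.

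Each library held 9189949 to 90814579 counts, with a median of 32191173.5. Day 10 libraries were the shallowest, at 9189949 to 29549870. The targeted genes went with the labels at day 6: NKX2-5 was at 0.995 and 0.761 CPM in NKX2-5 shRNA cells against 84.3 and 50.3 CPM in WT cells, ZEB2 at 54.4 and 57.3 CPM in ZEB2 shRNA cells against 97.0 and 93.9 CPM, and ZNF503 at 0.613 and 0.650 CPM in ZNF503 shRNA cells against 8.73 and 9.31 CPM (all called). At day 10 NKX2-5 was called lower in its line as well, while ZEB2, at 55.2 and 55.2 CPM against 118 and 107 CPM, was not (adjusted p = 0.0793), and at day 0 no targeted gene exceeded 0.417 CPM in WT cells. For ZEB2 the day 6 fall was modest (log2 fold change -0.77 ± 0.12). It was smaller than the reduction of target mRNA that the paper reports by real-time PCR, for which no day is stated. At day 2 no targeted gene was called lower. NKX2-5, at 0.105 and 0 CPM against 0.194 and 0.247 CPM, did not pass the filter, ZEB2 was at 11.1 and 12.5 CPM against 18.2 and 17.7 CPM (adjusted p = 0.185) and ZNF503 at 0.991 and 1.76 CPM against 1.10 and 1.98 CPM (adjusted p = 0.714), so that differences at days 0 and 2 are between lines in which lower RNA of the target was not shown. In WT cells the summed level of 6 measured undifferentiated ESC markers was 5651 and 5518 CPM at day 0 and 131 and 108 CPM at day 10, and that of 6 cardiomyocyte markers was 48.1 and 57.5 CPM at day 0 and 74944 and 66257 CPM. A list of 14 DNA replication and cell cycle genes summed to 5104 and 5074 CPM at day 0 and 817 and 636 CPM at day 10. These shifts ran alongside every change over time described here, and their part in those changes was not tested. In bulk RNA, fewer cells of a type and less RNA per cell cannot be told apart.

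In WT cells DNMT3B and TET2 showed the widest changes among the genes tested here, in opposite directions. DNMT3B stood at 1283 and 1227 CPM at day 0, 403 and 418 at day 2, 48.5 and 69.8 at day 6 and 38.1 and 41.7 at day 10. TET2 stood at 5.86 and 5.18 CPM at day 0, 32.7 and 32.4 at day 2, 106 and 103 at day 6 and 181 and 189.8 at day 10. For both genes the libraries of successive days did not overlap. From day 0 to day 10 DNMT3B fell 30.8-fold (log2 fold change -4.94 ± 0.17, adjusted p = 4.68e-09) and TET2 rose 34.4-fold (log2 fold change 5.10 ± 0.12, adjusted p = 5.46e-10), where ± is the standard error and adjusted p is the Benjamini-Hochberg value of edgeR's quasi-likelihood test over all genes. Of the 6 genes that passed the filter on low counts, 4 fell and 1 rose at 5% FDR, against 34.7% lower and 39.1% higher among all genes tested, and their median log2 fold change was -1.06 against 0.10 over all genes. By the fold and FDR thresholds of the study's methods (8-fold and 1% FDR at this day), DNMT3B and TET2 were called, against 15.5% of all genes.

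**Figure D1:**
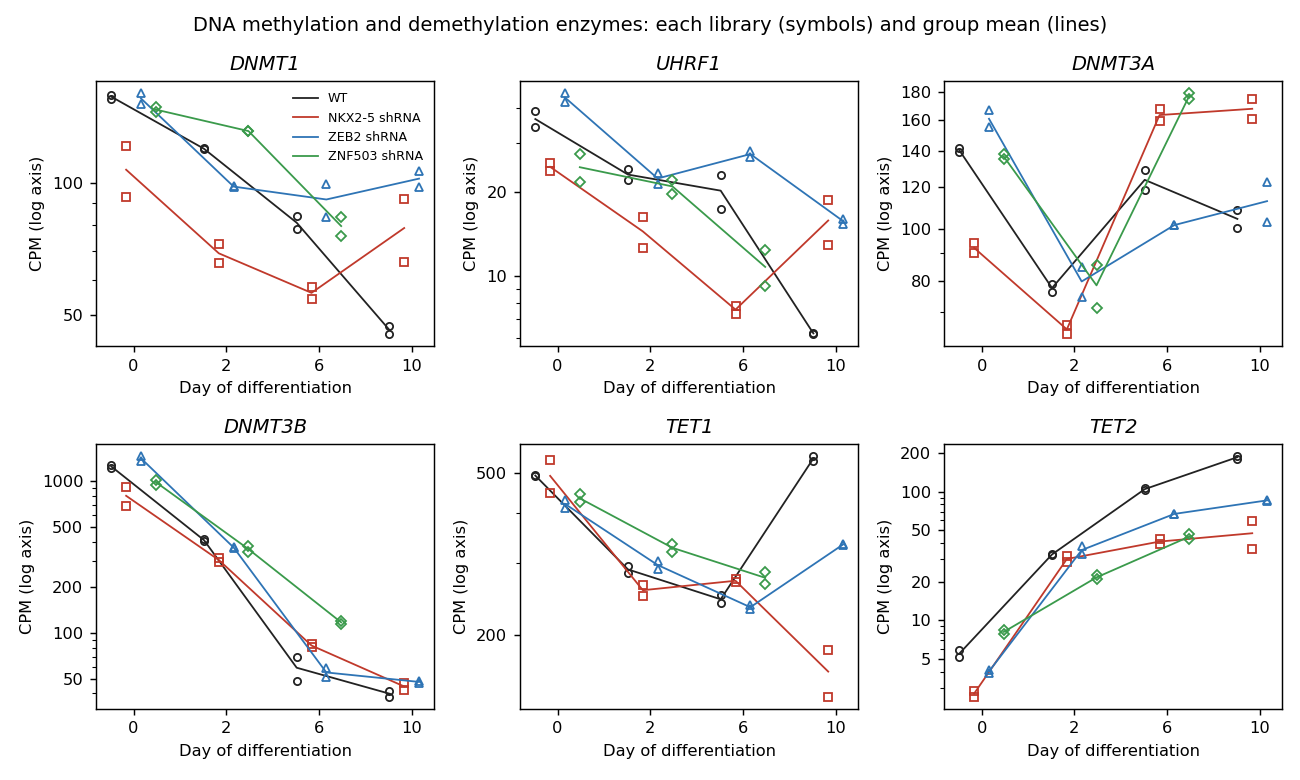
CPM on a log axis (vertical) by day of differentiation (horizontal) for the 6 genes that passed the filter; symbols are the 2 libraries of a group and lines join group means, coloured by cell line. DNMT3B fell and TET2 rose in every line, whereas TET1 in WT cells returned at day 10 to 552 and 536 CPM after 239 and 250 CPM at day 6.

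The maintenance genes fell in WT cells. DNMT1 was at 159 and 155 CPM at day 0, 119 and 119.7 at day 2, 78.3 and 83.9 at day 6 and 47.2 and 45.2 at day 10, each day below the last. UHRF1 was at 38.9 and 34.1 CPM at day 0, 24.1 and 22.0 at day 2, 17.5 and 23.0 at day 6 and 6.27 and 6.21 at day 10. The day 2 and day 6 libraries of UHRF1 overlapped, and the other successive days were apart. From day 0 to day 10 DNMT1 changed by a log2 fold change of -1.73 ± 0.10 (adjusted p = 1.16e-07) and UHRF1 by -2.51 ± 0.18 (adjusted p = 7.59e-07). The last step, from day 6 to day 10, was the steepest for UHRF1 (log2 fold change -1.68 ± 0.18, adjusted p = 4.41e-05), whereas from day 2 to day 6 it was not called (log2 fold change -0.20 ± 0.16, adjusted p = 0.335). DNMT1 passed the test at each step, with log2 fold change -0.36 ± 0.09, adjusted p = 0.00931 for the initial step. That call was lost when any of its 4 libraries was left out, at adjusted p = 0.0851 without day 0 replicate 1, 0.0628 without day 0 replicate 2, 0.0616 without day 2 replicate 1 and 0.0579 without day 2 replicate 2. With library totals alone it was -0.22 and not called (adjusted p = 0.0708). The day 2 call of UHRF1 (log2 fold change -0.63 ± 0.16, adjusted p = 0.0102) was lost without day 0 replicate 1 (adjusted p = 0.0970) and without day 2 replicate 2 (adjusted p = 0.0783).

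Among the de novo methyltransferases, DNMT3A moved in steps and not in a single direction. It was at 139 and 141 CPM in WT cells at day 0, 76.1 and 79.0 at day 2, 118 and 129 at day 6 and 108 and 100.3 at day 10. The fall to day 2 (log2 fold change -0.83 ± 0.10, adjusted p = 0.000102) and the rise to day 6 (log2 fold change 0.66 ± 0.10, adjusted p = 0.000283) were both called, so that the net change from day 0 to day 10 was small (log2 fold change -0.39 ± 0.10, adjusted p = 0.00423). The step from day 6 to day 10 was not called (log2 fold change -0.22 ± 0.10, adjusted p = 0.0711), but it was without day 10 replicate 3 (adjusted p = 0.0280), with library totals alone (adjusted p = 0.0410), without the filter on low counts (0.0141) and with the lowest-numbered RefSeq row of each gene (0.0198). DNMT3B fell at each step, by a log2 fold change of -1.58 ± 0.15 to day 2, -2.80 ± 0.16 to day 6 and -0.56 ± 0.15 to day 10, and the last of these was lost without day 6 replicate 2 (adjusted p = 0.0766). Per length, DNMT3B exceeded DNMT3A at day 0, at 289.5 ± 9.11 against 14.9 ± 0.171 CPM per kb (mean ± SD, n = 2). At day 10 they were at 9.20 ± 0.595 and 11.1 ± 0.614 CPM per kb, and the ratio of DNMT3A to DNMT3B per kb went from 0.0515 ± 0.00221 to 1.21 ± 0.145.

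DNMT3L was close to undetected. It had 26 counts in all, and 27 of 30 libraries had none, which allows at most 0.0330 to 0.326 CPM (3 counts) depending on the library's depth, for counting error only. The other 3 libraries held 4 counts (ZEB2 shRNA day 2 replicate 2, 0.0966 CPM), 11 counts (NKX2-5 shRNA day 6 replicate 2, 0.220 CPM) and 11 counts (ZNF503 shRNA day 6 replicate 1, 0.562 CPM). In each case the partner library of the same group had 0, so no level of DNMT3L was repeated. It did not pass the filter on low counts and was not tested.

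The TET genes diverged from each other in WT cells. TET1 was at 495 and 492 CPM at day 0, 285 and 295 at day 2, 239 and 250.4 at day 6 and 552 and 536 at day 10. It therefore dipped at days 2 and 6, and the day 10 libraries lay above those of day 0. The day 10 libraries are replicates 3 and 4 and the earlier ones replicates 1 and 2, so day and sample set cannot be told apart. The fall to day 2 (log2 fold change -0.74 ± 0.09, adjusted p = 0.000115) and the rise from day 6 to day 10 (log2 fold change 1.17 ± 0.09, adjusted p = 5.56e-06) passed the test. Day 10 against day 0 did not (log2 fold change 0.18 ± 0.09, adjusted p = 0.0906), but it did without day 10 replicate 4 (adjusted p = 0.0472). The further fall from day 2 to day 6 (log2 fold change -0.25 ± 0.09, adjusted p = 0.0340) was lost when any of its libraries was left out, at adjusted p = 0.105 and 0.188 without day 2 replicates 1 and 2, and 0.126 and 0.0714 without day 6 replicates 1 and 2. It was also lost in a single fit of all libraries (adjusted p = 0.0627), and with library totals alone it was -0.44 (adjusted p = 0.00122). TET2 rose at each step, by 2.59 ± 0.11 to day 2, 1.67 ± 0.10 to day 6 and 0.84 ± 0.10 to day 10 on the log2 scale. It passed the study's 4-fold threshold at day 2 against day 0, as did 8.37% of all genes. TET1 remained the higher of the pair throughout, at 51.4 ± 0.177 against 0.576 ± 0.0499 CPM per kb at day 0 and 56.6 ± 1.21 against 19.3 ± 0.687 CPM per kb at day 10.

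Within the steps of the WT time course, all 6 tested genes were called from day 0 to day 2, 5 lower and 1 higher, where 23.1% of all genes were lower and 21% higher. From day 2 to day 6, 3 were lower and 2 higher, where the shares of all genes were 24% and 25.9%. From day 6 to day 10, 3 were lower and 2 higher, against 29.2% and 28.2% of all genes. Day 6 against day 0 gave 4 lower and 1 higher, where 29.6% of all genes were lower and 31.3% higher.

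The knockdown comparisons at each day shared the same 2 WT libraries. At day 0, before differentiation, NKX2-5 shRNA cells had less of 5 of the 6 tested transcripts, where 7.64% of all genes were lower and 8.23% higher. TET2 was at 2.85 and 2.55 CPM against 5.86 and 5.18 in WT cells (log2 fold change -1.06 ± 0.19, adjusted p = 0.00357), and passed the study's 2-fold threshold, as did 4.03% of all genes. DNMT3A was at 90.0 and 94.3 CPM against 139 and 141 (log2 fold change -0.63 ± 0.09, adjusted p = 0.000945). DNMT3B was at 694 and 915 CPM against 1283 and 1227 (log2 fold change -0.67 ± 0.12, adjusted p = 0.00381). None of these groups overlapped with WT cells. DNMT1, at 93.0 and 121 CPM against 159 and 155 (log2 fold change -0.58 ± 0.12, adjusted p = 0.00690), and UHRF1, at 23.8 and 25.4 CPM against 38.9 and 34.1 (log2 fold change -0.59 ± 0.13, adjusted p = 0.0117), were also lower. The DNMT1 call was lost without WT replicate 1 (adjusted p = 0.0673) or WT replicate 2 (adjusted p = 0.0580), and the UHRF1 call without WT replicate 1 (adjusted p = 0.128), which left 3 called; a single fit of all 30 libraries lost UHRF1 as well (adjusted p = 0.0662). TET1 overlapped between the lines, at 538 and 448 CPM against 495 and 492. The replication list was at 4798 and 4719.7 CPM against 5104 and 5074 CPM in WT cells, with 1 of 14 genes higher and 7 lower, and its part in these differences was not tested.

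ZEB2 shRNA cells at day 0 had 0 of the 6 transcripts called by edgeR's quasi-likelihood test, with 2 at an unadjusted p under 0.05 and 0 by DESeq2, where 1.46% of all genes were lower and 2.47% higher. In ZNF503 shRNA cells UHRF1 alone was called, at 27.4 and 21.7 CPM against 38.9 and 34.1 in WT cells (log2 fold change -0.58 ± 0.13, adjusted p = 0.0228), where 3.52% of all genes were lower and 4.01% higher. This call was lost without WT replicate 1 (adjusted p = 0.221), WT replicate 2 (adjusted p = 0.0984) or ZNF503 shRNA replicate 2 (adjusted p = 0.231), and in a single fit of all 30 libraries (adjusted p = 0.114).

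At day 2, the maintenance pair and DNMT3B were lower in NKX2-5 shRNA cells. DNMT1 was at 72.6 and 65.5 CPM against 119 and 119.7 in WT cells (log2 fold change -0.81 ± 0.09, adjusted p = 2.63e-05). UHRF1 was at 12.6 and 16.3 CPM against 24.1 and 22.0 (log2 fold change -0.71 ± 0.15, adjusted p = 0.00402), a call that was lost without NKX2-5 shRNA replicate 1 (adjusted p = 0.0545). DNMT3B was at 294 and 313 CPM against 403 and 418 (log2 fold change -0.46 ± 0.08, adjusted p = 0.000942). These were 3 of 6 genes lower, where 13.6% of all genes were lower and 13% higher, and the replication list was at 3372 and 3155 CPM against 3124 and 3115 CPM in WT cells, with 2 of 14 genes higher and 7 lower. With library totals alone DNMT3A and TET1 were also called lower, for 5 in all, and DESeq2 called DNMT3A (adjusted p = 0.0471). ZNF503 shRNA cells had 2 of 6 lower, where 13.8% of all genes were lower and 13.1% higher. TET2 was at 22.3 and 20.8 CPM against 32.7 and 32.4 (log2 fold change -0.63 ± 0.12, adjusted p = 0.000940). DNMT3B was at 340.2 and 375 CPM against 403 and 418 (log2 fold change -0.24 ± 0.08, adjusted p = 0.0384), and its call was lost without WT replicate 1 (adjusted p = 0.0950), WT replicate 2 (adjusted p = 0.231) or ZNF503 shRNA replicate 1 (adjusted p = 0.308), and in a single fit of all libraries (adjusted p = 0.383). The mesendoderm markers summed to 372 and 476 CPM in these cells and 780.1 and 825 CPM in WT cells, with none of the 4 at 0, and their part was not tested. In ZEB2 shRNA cells 0 of 6 were called by edgeR, with 2 at an unadjusted p under 0.05 and 1 (DNMT1) by DESeq2, where 0.284% of all genes were lower and 0.206% higher.

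**Figure D2:**
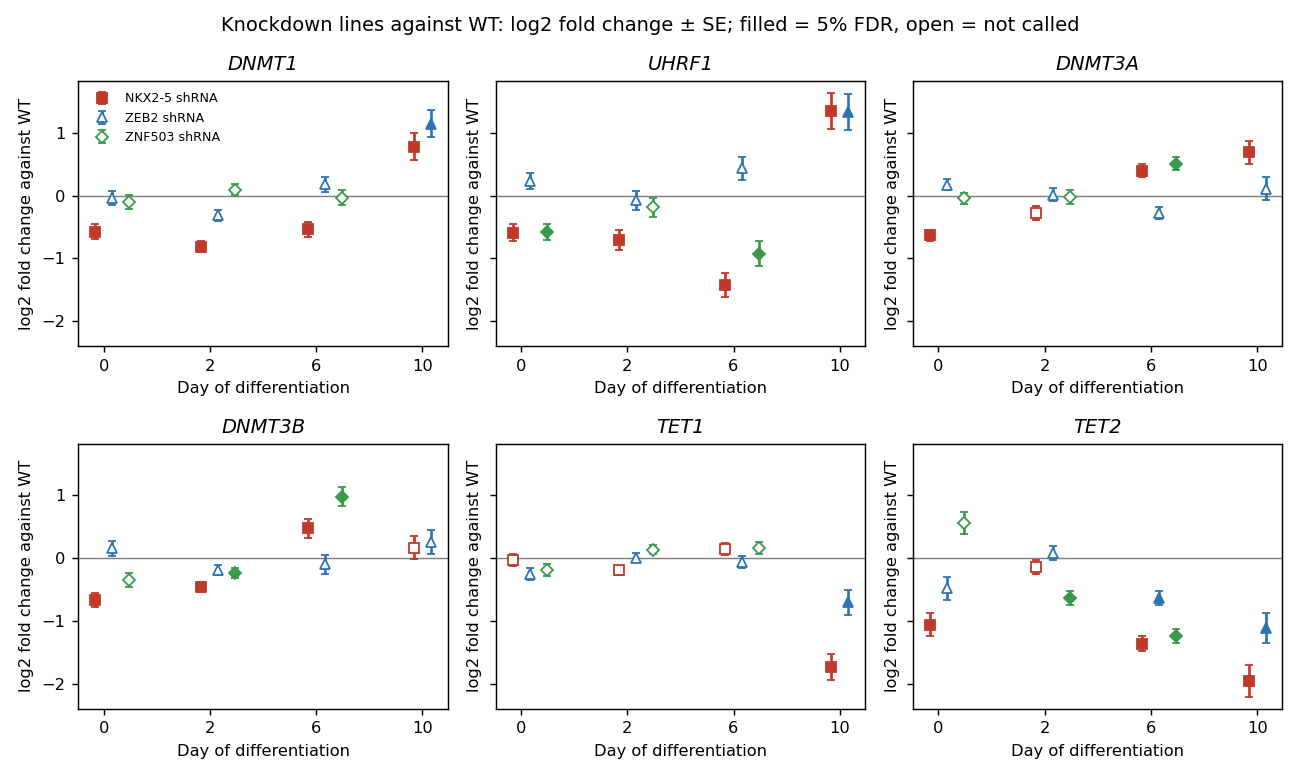
Log2 fold change against WT cells of the same day (vertical, ± SE) by day of differentiation (horizontal) for each knockdown line; filled symbols passed 5% FDR in edgeR's quasi-likelihood test and open symbols did not. TET2 was lower in every line at day 6 and in both lines measured at day 10, while DNMT1 and UHRF1 lay below WT in NKX2-5 shRNA cells up to day 6 and above WT at day 10; the 4 filled ZEB2 shRNA symbols at day 10 were not called when any of the 4 libraries compared was left out.

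At day 6, when WT cells had turned on cardiomyocyte genes, TET2 was lower in all 3 knockdown lines. It was at 42.5 and 39.3 CPM in NKX2-5 shRNA cells (log2 fold change -1.36 ± 0.11, adjusted p = 1.05e-06), 42.8 and 46.5 CPM in ZNF503 shRNA cells (log2 fold change -1.24 ± 0.11, adjusted p = 2.91e-06) and 67.5 and 66.7 CPM in ZEB2 shRNA cells (log2 fold change -0.63 ± 0.11, adjusted p = 0.00276), against 106 and 103 CPM in WT cells. No knockdown library reached a WT library, and each call was kept with any library left out.

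UHRF1 was lower at day 6 in NKX2-5 shRNA cells, at 7.33 and 7.85 CPM (log2 fold change -1.42 ± 0.19, adjusted p = 6.41e-05), and in ZNF503 shRNA cells, at 12.4 and 9.22 CPM (log2 fold change -0.92 ± 0.19, adjusted p = 0.00158), against 17.5 and 23.0 CPM in WT cells. DNMT1 passed the test in NKX2-5 shRNA cells, at 54.2 and 58.0 CPM against 78.3 and 83.9 (log2 fold change -0.54 ± 0.12, adjusted p = 0.00251). In ZNF503 shRNA cells DNMT1 was at 83.7 and 75.6 CPM, which overlapped WT cells, and it was not called. Replication genes were also lower: the list summed to 599 and 654 CPM in NKX2-5 shRNA cells and 909.8 and 958 CPM in ZNF503 shRNA cells against 1957 and 1958 CPM in WT cells, with 14 of 14 and 11 of 14 genes lower. Its part in the lower UHRF1 of both lines and the lower DNMT1 of NKX2-5 shRNA cells was not tested. In ZEB2 shRNA cells the list was at 2154 and 2214 CPM, and UHRF1 was at 26.7 and 28.0 CPM.

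Both de novo genes were higher at day 6 in the same pair of lines. DNMT3A was at 175 and 179 CPM in ZNF503 shRNA cells (log2 fold change 0.51 ± 0.10, adjusted p = 0.00114) and 159 and 168 CPM in NKX2-5 shRNA cells (log2 fold change 0.39 ± 0.10, adjusted p = 0.00638), against 118 and 129 CPM in WT cells. DNMT3B was at 120.0 and 115 CPM in ZNF503 shRNA cells (log2 fold change 0.98 ± 0.15, adjusted p = 0.000187) and 80.5 and 85.2 CPM in NKX2-5 shRNA cells (log2 fold change 0.47 ± 0.15, adjusted p = 0.0201), against 48.5 and 69.8 CPM in WT cells. The groups did not overlap for either gene. For ZNF503 shRNA cells these calls held with each library left out. For NKX2-5 shRNA cells the DNMT3B value depended on WT replicate 1, without which it was 0.24 (adjusted p = 0.220), and on WT replicate 2, without which it was 0.76; the call was also lost without NKX2-5 shRNA replicate 1 (adjusted p = 0.0530) or replicate 2 (adjusted p = 0.104). The DNMT3A call there was lost without WT replicate 1 (adjusted p = 0.0612) or NKX2-5 shRNA replicate 2 (adjusted p = 0.0787), which left 3 genes called. TET1 was not called in any line at day 6.

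In counts, NKX2-5 shRNA cells at day 6 had 2 genes higher and 3 lower of 6, where 24.4% and 24.7% of all genes were. ZNF503 shRNA cells had 2 higher and 2 lower, where 27.2% and 28.5% of all genes were. ZEB2 shRNA cells had 1 lower, where 5.33% of all genes were lower and 5.67% higher. None of the 6 passed the study's 8-fold threshold, which 4.71%, 3.91% and 0.462% of all genes passed in the NKX2-5, ZNF503 and ZEB2 knockdowns, in that order. Cell type markers differed at the same time. Cardiomyocyte markers summed to 7476 and 7310.2 CPM in NKX2-5 shRNA cells, 10391 and 9921 in ZNF503 shRNA cells and 16414 and 15417 in ZEB2 shRNA cells against 39745 and 32548 in WT cells. Hepatic and endoderm markers summed to 4281 and 4457, 3482 and 3515 and 447 and 668 CPM in those lines against 402 and 834 in WT cells, with 8 of 8 higher in NKX2-5 shRNA and 7 of 8 in ZNF503 shRNA cells and none at 0 in both libraries of a group. Their part in the differences of these enzymes was not tested.

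NKX2-5 shRNA cells of day 10 (replicates 1 and 2) had lower TET genes and higher maintenance genes than WT cells (replicates 3 and 4). Line and sample set cannot be told apart in this comparison. TET1 was at 141 and 184 CPM against 552 and 536 in WT cells, 3.33-fold lower (log2 fold change -1.74 ± 0.21, adjusted p = 0.000954). TET2 was at 36.1 and 58.9 CPM against 181 and 189.8, 3.88-fold lower (log2 fold change -1.96 ± 0.25, adjusted p = 0.00127). Both TET calls held with each library left out. UHRF1 was at 12.9 and 18.8 CPM against 6.27 and 6.21 (log2 fold change 1.35 ± 0.29, adjusted p = 0.00866). DNMT1 was at 91.7 and 66.0 CPM against 47.2 and 45.2 (log2 fold change 0.78 ± 0.22, adjusted p = 0.0232). DNMT3A was at 161 and 175 CPM against 108 and 100.3 (log2 fold change 0.69 ± 0.18, adjusted p = 0.0197). For each of these 5 genes the libraries of the groups did not overlap, although the NKX2-5 shRNA libraries lay apart from each other for DNMT1, TET2 and UHRF1. The share of all genes without overlap was not counted. These were 3 genes higher and 2 lower of 6, where 23.3% of all genes were higher and 20.6% lower, and none passed the 8-fold threshold, which 7.3% of all genes passed. Without WT replicate 3, the calls of DNMT1, DNMT3A and UHRF1 were lost (adjusted p = 0.0912, 0.0665 and 0.0520), and 2 were left. Without WT replicate 4, those of DNMT1 and DNMT3A were lost (adjusted p = 0.103 and 0.0922), and 3 were left.

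Day 10 cultures differed widely in markers. In NKX2-5 shRNA cells hepatic and endoderm markers summed to 41849 and 29618 CPM against 3884 and 1573 CPM in WT cells, with 8 of 8 higher, and blood markers to 926 and 1118 CPM against 43.0 and 12.96 CPM, while cardiomyocyte markers summed to 4211 and 3122 CPM against 74944 and 66257 CPM. The blood markers had 6 of 6 higher, none of the markers of these lists was at 0 in both libraries of a group, and endothelial markers summed to 145 and 242 CPM against 441 and 348 CPM. The endothelial list had 3 higher and 1 lower of 4 tested, with PECAM1 (log2 fold change 5.04 ± 0.66, adjusted p = 0.00132) and CDH5 (log2 fold change 3.67 ± 0.53, adjusted p = 0.00196) higher while the sum was lower, and the part of these cell types in the TET and DNMT differences was not tested. The replication list was at 589 and 769 CPM in NKX2-5 shRNA cells and 817 and 636 CPM in WT cells. It had 1 of 14 genes higher and 1 lower, with a median log2 fold change of -0.01 against 0.03 over all genes. The part of replication in the DNMT1 and UHRF1 differences was not tested. The count of called list genes was 0 without WT replicate 4, 1 without WT replicate 3, 5 without NKX2-5 shRNA replicate 1.

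In ZEB2 shRNA cells at day 10, compared with the same WT libraries, 4 genes were called, and every call rested on having all 4 libraries compared. DNMT1 was at 106 and 97.9 CPM against 47.2 and 45.2 in WT cells (log2 fold change 1.15 ± 0.22, adjusted p = 0.0135). UHRF1 was at 16.1 and 15.4 CPM against 6.27 and 6.21 (log2 fold change 1.33 ± 0.29, adjusted p = 0.0207). TET2 was at 84.5 and 86.5 CPM against 181 and 189.8 (log2 fold change -1.11 ± 0.25, adjusted p = 0.0222), and TET1 at 336 and 332 CPM against 552 and 536 (log2 fold change -0.70 ± 0.20, adjusted p = 0.0493). The groups did not overlap for any of the 4. These were 2 genes higher and 2 lower of 6, where 10.6% of all genes were higher and 7.67% lower. Leaving out WT replicate 3, WT replicate 4, ZEB2 shRNA replicate 3 or ZEB2 shRNA replicate 4 left 0 genes called in each case, with adjusted p = 0.0849, 0.0926, 0.127 and 0.0991 for DNMT1, 0.106, 0.105, 0.159 and 0.142 for UHRF1, 0.103, 0.116, 0.181 and 0.171 for TET2 and 0.167, 0.143, 0.324 and 0.327 for TET1, in that order. In each of these fits the lone remaining library is assumed to vary like the other groups. With library totals alone, the calls of TET1 and TET2 were lost (adjusted p = 0.133 and 0.0552), and TET1 also without the filter on low counts (adjusted p = 0.0625) and with the lowest-numbered row (adjusted p = 0.0504). The replication list was at 1413 and 1553 CPM in ZEB2 shRNA cells against 817 and 636 CPM in WT cells, with 6 of 14 genes higher and none lower, and none called without any of the 4. Cardiomyocyte markers summed to 17264 and 12457 CPM and hepatic and endoderm markers to 7404 and 8788 CPM, the latter with 6 of 8 higher and none at 0 in both libraries of a group. Undifferentiated ESC markers summed to 282 and 281 CPM against 131 and 108 CPM in WT cells, with 3 higher and 0 lower of 4 tested, mesendoderm markers to 13.8 ± 1.38 CPM against 1.54 ± 1.37 CPM (mean ± SD, n = 2), with 1 higher and 0 lower of 2 tested (EOMES) and TBXT and GSC at 0 in both groups, and endothelial markers to 362 and 434 CPM against 441 and 348 CPM, with 2 higher and 0 lower of 4 tested (CDH5 and PECAM1). The part of these lists in the result was not tested.

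**Figure D3:**
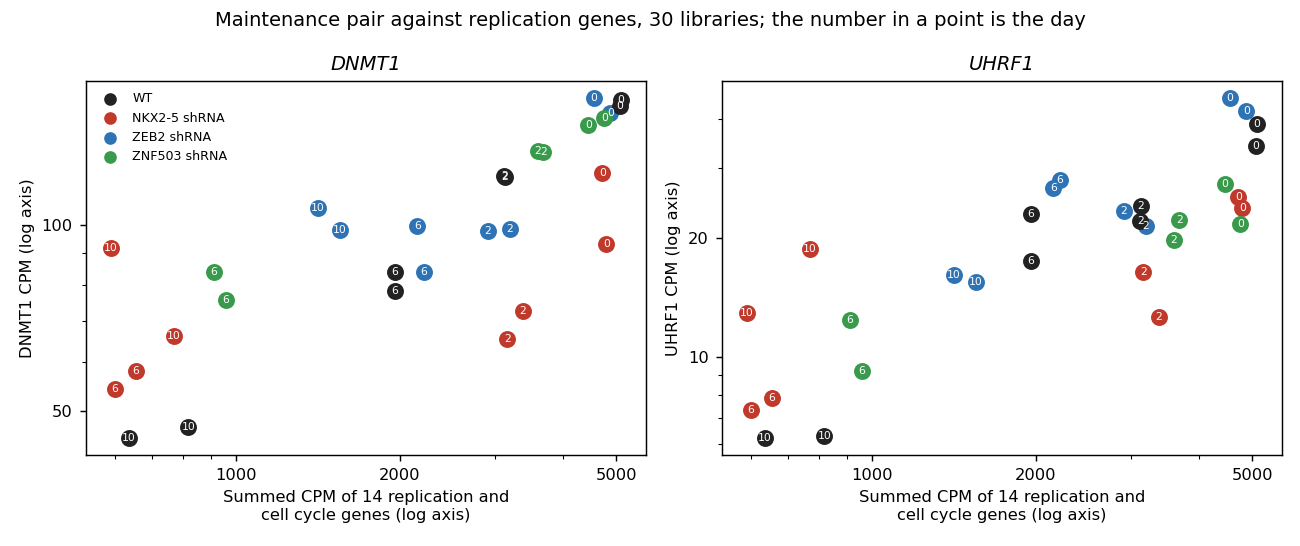
CPM of DNMT1 (left) and UHRF1 (right) against the summed CPM of 14 replication and cell cycle genes, both axes logarithmic, in the 30 libraries; colours are cell lines and the number inside a point is the day. At sums under 1000 CPM, the day 10 NKX2-5 shRNA libraries lie above the day 10 WT libraries for both genes, at 12.9 and 18.8 CPM of UHRF1 against 6.27 and 6.21 CPM. Line and sample set cannot be told apart between these libraries, and the part of replication in the difference was not tested.

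Whether the change from day 0 to day 6 itself differed between a knockdown line and WT cells was tested as an interaction. DNMT3B fell less in both NKX2-5 shRNA cells (difference of log2 fold changes 1.13 ± 0.20, adjusted p = 0.000295) and ZNF503 shRNA cells (1.33 ± 0.20, adjusted p = 7.09e-05). DNMT3A also differed upward in NKX2-5 shRNA cells (1.01 ± 0.12, adjusted p = 5.11e-06) and ZNF503 shRNA cells (0.56 ± 0.12, adjusted p = 0.00156), and downward in ZEB2 shRNA cells (-0.47 ± 0.12, adjusted p = 0.0250). In NKX2-5 shRNA cells both genes started lower at day 0. DNMT3B was at 694 and 915 CPM against 1283 and 1227 in WT cells, and DNMT3A at 90.0 and 94.3 CPM against 139 and 141. Their differences therefore hold the day 0 difference between the lines as well as that at day 6. The same holds for DNMT3B in ZNF503 shRNA cells, which was at 1027 and 954 CPM at day 0. That day 0 difference from WT cells was not called in the main fit. It was called by DESeq2 (log2 fold change -0.35, adjusted p = 0.0475) and by edgeR without the filter on low counts (-0.34, adjusted p = 0.0180). The rise of TET2 was smaller in ZNF503 shRNA cells (-1.79 ± 0.17, adjusted p = 4.66e-07), from 7.81 and 8.47 CPM at day 0 to 42.8 and 46.5 CPM at day 6 against 5.86 and 5.18 to 106 and 103 CPM in WT cells. TET2 started lower and ended lower in NKX2-5 shRNA cells, and its difference was not called (-0.31 ± 0.18, adjusted p = 0.166). UHRF1 fell further in NKX2-5 shRNA cells (-0.85 ± 0.23, adjusted p = 0.00814), and TET1 fell less in ZNF503 shRNA cells (0.36 ± 0.13, adjusted p = 0.0379).

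In counts, the interaction was called for 2 genes upward and 1 downward of 6 in NKX2-5 shRNA cells, where 19.7% and 21.4% of all genes were. It was called for 3 upward and 1 downward in ZNF503 shRNA cells, where 19.3% and 20% of all genes were, and for 1 downward in ZEB2 shRNA cells, where 4.06% were downward and 3.06% upward. The DNMT3A call in ZEB2 shRNA cells was lost without WT day 0 replicate 1 or 2 (adjusted p = 0.110 and 0.106), WT day 6 replicate 2 (0.0969), ZEB2 shRNA day 0 replicate 2 (0.110), or ZEB2 shRNA day 6 replicate 1 or 2 (adjusted p = 0.0831 and 0.0771). The TET1 call in ZNF503 shRNA cells was lost without 7 of the 8 libraries, namely WT day 0 replicates 1 and 2 (adjusted p = 0.102 and 0.117), WT day 6 replicates 1 and 2 (adjusted p = 0.139 and 0.0682), ZNF503 shRNA day 0 replicates 1 and 2 (adjusted p = 0.145 and 0.0895) and ZNF503 shRNA day 6 replicate 2 (adjusted p = 0.115). Both of these calls were also lost without the filter on low counts (adjusted p = 0.0512 and 0.0858) and in a single fit of all libraries, and that of TET1 with the lowest-numbered row (adjusted p = 0.0501). The other 6 interaction calls held with each library left out.

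Within the knockdown lines, the course of DNMT3B and TET2 had the same signs as in WT cells up to day 6. In NKX2-5 shRNA cells DNMT3B went from 694 and 915 CPM at day 0 to 42.3 and 46.6 CPM at day 10, and in ZEB2 shRNA cells from 1476 and 1366 to 48.2 and 47.2 CPM. TET2 rose from day 0 to day 2 by a log2 fold change of 3.54 ± 0.26 in NKX2-5 shRNA, 3.09 ± 0.13 in ZEB2 shRNA and 1.44 ± 0.14 in ZNF503 shRNA cells. Neither later step of TET2 was called in NKX2-5 shRNA cells (adjusted p = 0.164 to day 6 and 0.600 to day 10), although a single fit of all libraries called the step to day 6 (log2 fold change 0.45, adjusted p = 0.0145). Their day 10 libraries differed, at 36.1 and 58.9 CPM, and the last step was called without day 10 replicate 1 (adjusted p = 0.0171). In ZEB2 shRNA cells TET2 rose to day 6 (log2 fold change 0.92 ± 0.12, adjusted p = 2.08e-05), and the step to day 10 (log2 fold change 0.33 ± 0.12, adjusted p = 0.0259) was lost without ZEB2 shRNA day 6 replicate 1 or 2 (adjusted p = 0.104 and 0.111) or day 10 replicate 3 or 4 (adjusted p = 0.0847 and 0.119). It was also lost without the filter on low counts (adjusted p = 0.0671) and in a single fit of all libraries (0.0509), and was 0.50 with library totals alone. The difference between lines in these steps was not tested.

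The last step of TET1 had opposite signs in the lines. From day 6 to day 10 it rose in WT cells, rose in ZEB2 shRNA cells, from 232 and 236 to 336 and 332 CPM (log2 fold change 0.50 ± 0.09, adjusted p = 0.000220), and fell in NKX2-5 shRNA cells, from 274 and 269.6 to 141 and 184 CPM (log2 fold change -0.80 ± 0.16, adjusted p = 0.00491). UHRF1 fell from day 6 to day 10 in WT and in ZEB2 shRNA cells (log2 fold change -0.81 ± 0.13, adjusted p = 0.000128). In NKX2-5 shRNA cells it rose over that step (log2 fold change 1.00 ± 0.25, adjusted p = 0.0123), a call that was lost without NKX2-5 shRNA day 6 replicate 1 or 2 (adjusted p = 0.0772 and 0.0550). No test of the difference between lines was run for this step. The day 10 libraries of WT and ZEB2 shRNA cells carry other replicate numbers than those of NKX2-5 shRNA cells. The lines that shared a sign for TET1 and UHRF1 therefore also shared a sample set. Line and sample set cannot be told apart for these signs. DNMT3A rose from day 2 to day 6 in every line, by 1.31 ± 0.12 in NKX2-5 shRNA, 1.15 ± 0.11 in ZNF503 shRNA and 0.33 ± 0.11 in ZEB2 shRNA cells on the log2 scale; the last of these was lost without ZEB2 shRNA day 2 replicate 2 (adjusted p = 0.149) or day 6 replicate 1 or 2 (adjusted p = 0.0714 and 0.0670), and with library totals alone (adjusted p = 0.0747).

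By step, NKX2-5 shRNA cells had 3 lower and 1 higher of 6 to day 2, where 14% of all genes were lower and 14.4% higher. They had 2 lower and 1 higher to day 6, where 24.2% and 23.7% of all genes were, and 2 lower and 1 higher to day 10, where 25% and 24.1% were. ZEB2 shRNA cells had 5 lower and 1 higher to day 2 against 32.2% and 24.7% of all genes, 2 lower and 2 higher to day 6 against 24.1% and 24.6%, and 1 lower and 2 higher to day 10 against 31% and 32.3%. In ZNF503 shRNA cells there were 3 lower and 1 higher to day 2 against 16.7% and 14.9% of all genes, and 4 lower and 2 higher to day 6 against 34.6% and 31.4%. Among the calls not yet described, that of DNMT3A to day 2 in NKX2-5 shRNA cells (log2 fold change -0.44 ± 0.12, adjusted p = 0.0328) was lost without any of its 4 libraries (adjusted p = 0.0752 and 0.127 without day 0 replicates 1 and 2, 0.167 and 0.122 without day 2 replicates 1 and 2). TET1 over the same step was lost without day 2 replicate 1 or 2 (adjusted p = 0.0516 and 0.0652), which left 2 called. UHRF1 to day 6 was lost without day 2 replicate 2 (adjusted p = 0.0928) or day 6 replicate 1 or 2 (adjusted p = 0.107 and 0.0766). In ZNF503 shRNA cells the TET1 call to day 2 was lost without any of its 4 libraries (adjusted p = 0.0515 to 0.150), and the one to day 6 without day 2 replicate 1 or 2 or day 6 replicate 1 (adjusted p = 0.0512, 0.211 and 0.0652). The latter was also lost with DESeq2 (adjusted p = 0.0618), with its size factors in edgeR (0.0755) and in a single fit of all libraries (0.0514), and the DNMT3A call to day 2 in NKX2-5 shRNA cells with library totals alone (0.0647). DNMT1 and UHRF1, not called to day 2 in NKX2-5 shRNA cells, were called lower there by DESeq2 (adjusted p = 0.0208 and 0.0155) and in a single fit of all libraries (0.000562 and 0.00170).

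The fold and FDR thresholds of the study's methods left few of the 6 genes called. Against WT cells a gene had to change 2-fold at day 0, 4-fold at day 2 or 8-fold later, and the FDR limit was 10% up to day 2 and 1% after it. Besides TET2 in NKX2-5 shRNA cells at day 0, no gene passed them: 2.2% of all genes passed in ZEB2 shRNA and 2.56% in ZNF503 shRNA cells at day 0, 1.19%, 0.133% and 2.81% in NKX2-5, ZEB2 and ZNF503 shRNA cells at day 2, and 1.46% in ZEB2 shRNA cells at day 10. Over time, with the threshold of the later day, 1 gene (TET2) passed from day 0 to day 2 in WT cells, in NKX2-5 shRNA cells, where 8.94% of all genes did, and in ZEB2 shRNA cells, where 10.7% did. None passed that step in ZNF503 shRNA cells, where 4.03% did. DNMT3B and TET2 passed from day 0 to day 6 in WT cells, where 10.2% of all genes did. No gene passed from day 2 to day 6, where 8.35% of all genes passed in WT, 9.04% in NKX2-5 shRNA, 8.14% in ZEB2 shRNA and 9.83% in ZNF503 shRNA cells. From day 6 to day 10 no gene passed either, where 3.94% passed in WT, 5.53% in NKX2-5 shRNA and 4.1% in ZEB2 shRNA cells. As interactions none passed, where 4.03%, 0.382% and 3.23% of all genes passed in NKX2-5, ZEB2 and ZNF503 shRNA cells.

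The summed TET transcripts (TET1 and TET2) relative to the summed catalytic DNMT transcripts (DNMT1, DNMT3A and DNMT3B), all in CPM per kb, are given as a description. In WT cells the ratio was 0.155 ± 0.00369 at day 0, 0.267 ± 0.000264 at day 2, 0.869 ± 0.0898 at day 6 and 2.61 ± 0.00758 at day 10 (mean ± SD, n = 2). At day 10 it was 1.03 ± 0.0637 in ZEB2 shRNA cells and 0.511 ± 0.133 in NKX2-5 shRNA cells, both below WT cells. At day 6 it was 0.693 ± 0.0406 in NKX2-5 shRNA, 0.548 ± 0.0402 in ZNF503 shRNA and 0.770 ± 0.0681 in ZEB2 shRNA cells. Because TET3 was not analysed, the ratio covers only part of the TET family. The ratio of UHRF1 to DNMT1 per kb was 0.314 ± 0.0240 in WT cells at day 0 and 0.183 ± 0.00419 at day 10.

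**Figure D4:**
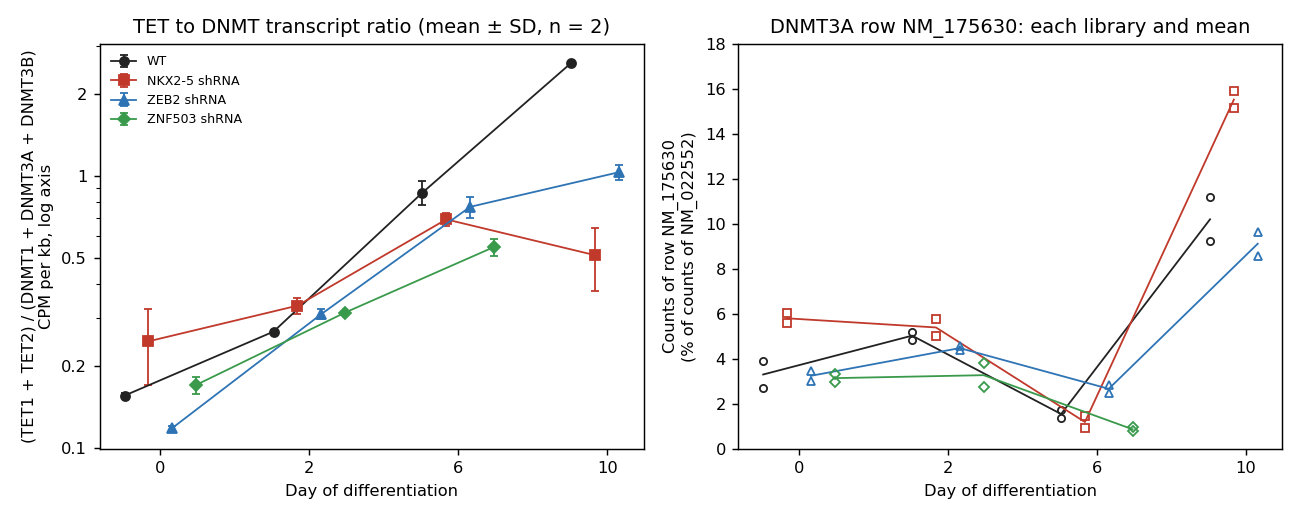
Left, ratio of TET1 and TET2 to DNMT1, DNMT3A and DNMT3B in CPM per kb on a log axis by day, as mean ± SD of 2 libraries; right, counts of the DNMT3A row NM_175630 as a percentage of those of NM_022552 by day, each library as a symbol and lines through the means. WT cells reach a ratio of 2.61 at day 10 while NKX2-5 shRNA cells are at 0.511, and the DNMT3A row is at its highest in all 3 lines measured at day 10.

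RefSeq rows of DNMT3A and of DNMT3B moved against each other. Only the rows named here were set against the main row of their gene. Rows of a gene share exons and therefore share reads, so these values describe rows and not isoforms. DNMT3A row NM_175630 had 2.70% and 3.90% of the counts of the main row in WT cells at day 0, 5.21% and 4.85% at day 2, 1.36% and 1.73% at day 6 and 9.23% and 11.2% at day 10. At day 10 the share was 15.9% and 15.2% in NKX2-5 shRNA cells and 9.65% and 8.59% in ZEB2 shRNA cells. The day 10 libraries lay above all libraries of the earlier days. Row NM_153759, which encodes the shorter protein DNMT3A2, had 100.1% and 99.6% of the counts of the main row in WT cells at day 6 and 90.8% and 90.2% at day 10, and 85.4% and 86.0% in NKX2-5 shRNA cells at day 10. DNMT3B row NM_175849 went from 92.7% and 92.4% of the main row at day 0 to 98.2% and 99.0% at day 10 in WT cells, and row NM_175848 ranged from group means of 98.0% to 99.7%. TET2 row NM_017628 ranged over group means of 66.7% to 81.9%, with WT libraries at day 0 far apart at 54.8% and 80.4%.

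Over the 15 groups, DNMT3B was highest in ZEB2 shRNA cells at day 0 (1421 ± 78.1 CPM, mean ± SD, n = 2) and lowest in WT cells at day 10 (39.9 ± 2.58 CPM), and 12 of its 14 neighbouring pairs in rank order did not overlap between libraries. TET2 ran from 185 ± 6.59 CPM in WT cells at day 10 to 2.70 ± 0.212 CPM in NKX2-5 shRNA cells at day 0, also with 12 of 14 neighbouring pairs apart. TET1 was highest in WT cells at day 10 (544 ± 11.7 CPM) and lowest in NKX2-5 shRNA cells at day 10 (163 ± 30.5 CPM). DNMT3A was highest in ZNF503 shRNA cells at day 6 (177 ± 3.11 CPM) and lowest in NKX2-5 shRNA cells at day 2 (64.9 ± 1.83 CPM), with 7 of 14 neighbouring pairs overlapping. For DNMT1 9 of 14 pairs overlapped, for UHRF1 8 and for TET1 7. These counts were not made for all genes.

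The genes most alike in pattern were sought among 15351 genes by Pearson's r of log2(CPM + 1) group means over the 15 groups, which share 4 days and are not independent. They were CENPO (r = 0.956), CCNF (r = 0.955) and NCAPH2 (r = 0.947) for DNMT1, and TK1 (r = 0.953), ZNF367 (r = 0.919) and POLA2 (r = 0.917) for UHRF1. For DNMT3B they were PRDM14 (r = 0.982), SOX2 (r = 0.979) and GLB1L3 (r = 0.979), and those for DNMT3A included PMPCA (r = 0.945) and LETM1 (r = 0.936). For TET1 they were KCNJ11 (r = 0.909), TNRC6C (r = 0.909) and ELAVL2 (r = 0.903), and for TET2 ARSD (r = 0.980), AGO4 (r = 0.975) and RBM5 (r = 0.973). TET1 had the weakest match of the 6. Among the genes themselves r was 0.892 for DNMT1 with UHRF1 and -0.910 for DNMT3B with TET2.

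The surrounding pathway was followed by gene lists, described by their counts and medians, with no list test. Over the whole WT time course 39.1% of all genes were higher and 34.7% lower, with a median log2 fold change of 0.10. Cofactors of the DNMTs had 0 higher and 7 lower of 8 tested (median -1.82). HELLS, a chromatin remodeler needed for methylation, went from 491 and 475 to 35.2 and 24.2 CPM (log2 fold change -3.97 ± 0.16, adjusted p = 1.25e-08). PCNA, the replication clamp that binds DNMT1, went from 377 and 345 to 40.5 and 32.7 CPM (log2 fold change -3.25 ± 0.15, adjusted p = 3.04e-08). DPPA3, which keeps UHRF1 from chromatin, went from 4.32 and 4.11 to 0.570 and 0 CPM (log2 fold change -3.47 ± 0.61, adjusted p = 0.000467). The replication list, which also holds PCNA, had 1 higher and 13 lower of 14 tested (median -2.93), including the helicase subunit MCM5 (-3.57 ± 0.12) and cyclin B1, CCNB1 (-3.38 ± 0.15). In both lists most members were lower, as DNMT1 and UHRF1 were.

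On the removal side, genes of demethylation and base excision repair had 5 higher and 7 lower of 14 tested (median -0.43). PARP1, which signals strand breaks, went from 517 and 515 to 115 and 91.4 CPM (log2 fold change -2.28 ± 0.13, adjusted p = 1.03e-07). GADD45A, a stress-induced gene linked to active demethylation, went from 5.83 and 4.87 to 22.8 and 21.8 CPM (log2 fold change 2.10 ± 0.16, adjusted p = 8.96e-07), and the glycosylase NEIL1 from 3.02 and 4.14 to 8.04 and 19.7 CPM (log2 fold change 1.96 ± 0.40, adjusted p = 0.00132). Partners of the TETs and enzymes of 2-oxoglutarate supply (the TET cosubstrate) had 5 higher and 3 lower of 8 tested (median 1.04). CXXC4 (IDAX), a zinc finger protein known to bind TET2 and promote its loss, rose from 1.62 and 2.03 to 73.4 and 80.2 CPM (log2 fold change 5.43 ± 0.17, adjusted p = 2.65e-09). The mitochondrial enzyme IDH2 rose (log2 fold change 2.32 ± 0.13, adjusted p = 1.05e-07) and the cytosolic IDH1 fell (log2 fold change -2.35 ± 0.14, adjusted p = 1.89e-07).

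Readers of methylated CpG had 4 higher and 2 lower of 6 tested (median 0.85), and 1 of the 7 listed had no row. ZBTB4 (2.32 ± 0.17) and MBD1 (0.96 ± 0.12) were among those that rose on the log2 scale. Genes of the methyl donor cycle were split, with 5 higher and 5 lower of 12 tested (median 0.15). MAT2B, a regulatory subunit of S-adenosylmethionine synthesis, fell (log2 fold change -2.28 ± 0.13, adjusted p = 1.11e-07), as did the serine hydroxymethyltransferase SHMT2 (log2 fold change -2.07 ± 0.14, adjusted p = 3.60e-07). MAT1A, the form of the synthetase known from liver, went from 1.11 and 0.417 to 5.19 and 1.85 CPM (log2 fold change 2.29 ± 0.57, adjusted p = 0.00429), a call that was lost without WT day 10 replicate 3 (adjusted p = 0.117). Targeting and chromatin partners had 2 higher and 5 lower of 11 tested (median -0.27; 4 without WT replicate 2). The imprint guardian ZNF445 rose (1.47 ± 0.12), and its partner TRIM28 (-1.37 ± 0.09) and the CpG island binder KDM2B (-0.99 ± 0.11) fell.

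**Figure D5:**
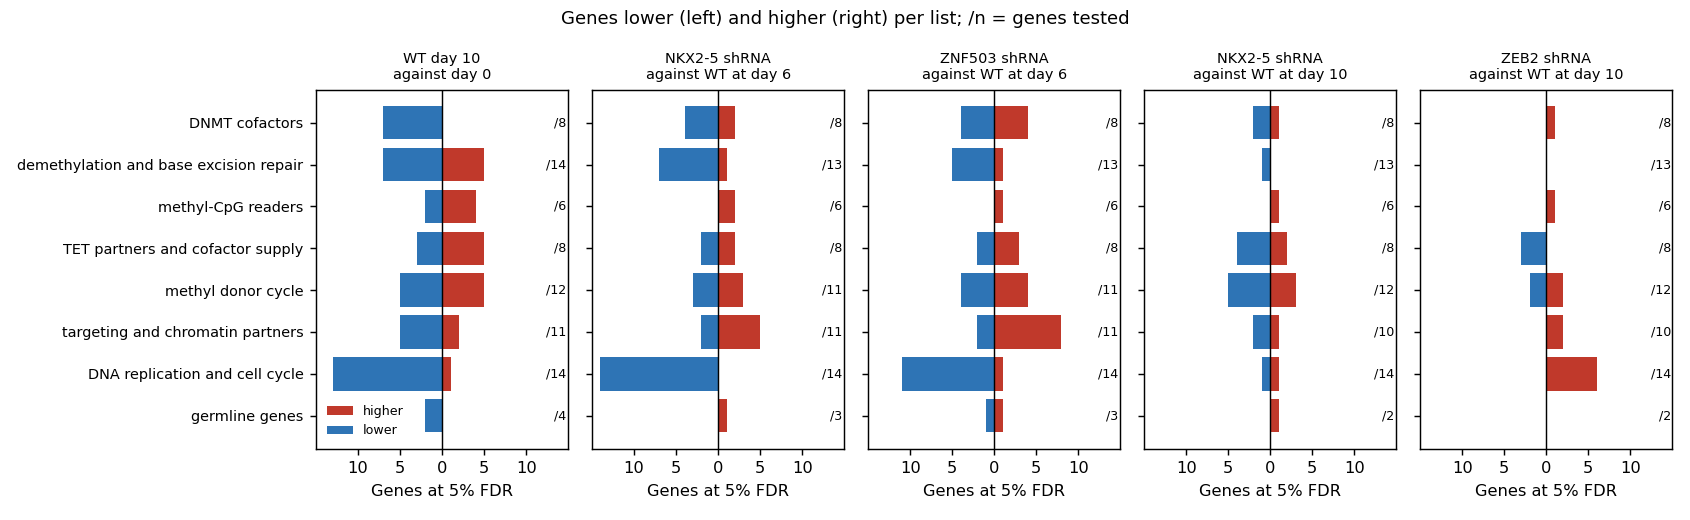
Number of genes at 5% FDR that were lower (left of 0) or higher (right of 0) in each pathway list for 5 comparisons; the number at the right edge is the genes tested. The replication list has 13 genes lower from day 0 to day 10 in WT cells, 14 lower in NKX2-5 shRNA and 11 lower in ZNF503 shRNA cells at day 6, and 6 higher in ZEB2 shRNA cells at day 10, a comparison in which no DNMT, TET or UHRF1 call was kept with any library left out.

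For day 6 the lists in NKX2-5 and ZNF503 shRNA cells are given side by side; 24.4% of all genes were higher and 24.7% lower in the former (median log2 fold change -0.0016), and 27.2% and 28.5% in the latter (median -0.03). CDCA7, a HELLS partner in methylation, was at 7.30 and 7.29 CPM in NKX2-5 shRNA cells (log2 fold change -3.10 ± 0.20, adjusted p = 1.09e-07) and 5.47 and 8.61 CPM in ZNF503 shRNA cells (log2 fold change -3.14 ± 0.20, adjusted p = 1.75e-07) against 66.8 and 57.7 CPM in WT cells. DPPA3 was at 13.2 and 13.3 CPM (log2 fold change 3.10 ± 0.24, adjusted p = 5.70e-07) and 5.88 and 7.11 CPM (log2 fold change 2.07 ± 0.24, adjusted p = 1.99e-05) against 1.43 and 1.61 CPM, and it was also higher in ZEB2 shRNA cells (log2 fold change 1.15 ± 0.25, adjusted p = 0.00936). The DNMT cofactors had 2 higher and 4 lower of 8 tested in NKX2-5 shRNA cells (median -0.29) and 4 higher and 4 lower of 8 tested in ZNF503 shRNA cells (median -0.09). The 2-oxoglutarate-producing IDH3A was at 35.5 and 32.2 CPM and 28.2 and 29.6 CPM in NKX2-5 and ZNF503 shRNA cells against 121 and 101 CPM in WT cells (-1.72 ± 0.13 and -1.95 ± 0.13 on the log2 scale). The glycosylase NEIL3 was lower in both lines (-2.25 ± 0.21 and -1.90 ± 0.21), GADD45B in NKX2-5 shRNA cells (-1.78 ± 0.16) and GADD45G in ZNF503 shRNA cells (-1.30 ± 0.28). The comparisons share the WT libraries.

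Of the other lists at day 6, the repair genes had 1 higher and 7 lower of 13 tested in NKX2-5 shRNA (5 without NKX2-5 shRNA replicate 2 or WT replicate 1) and 1 higher and 5 lower of 13 tested in ZNF503 shRNA cells, and the targeting and chromatin partners had 5 higher and 2 lower of 11 tested (3 without NKX2-5 shRNA replicate 1 or WT replicate 1, 4 without NKX2-5 shRNA replicate 2) and 8 higher and 2 lower of 11 tested. In the latter list KDM1B, a histone demethylase needed for maternal imprints, was lower in both lines (-0.97 ± 0.24 and -1.07 ± 0.24). The imprint factor ZFP57 was near the detection limit, at 0.0737 and 0.0400 CPM and 0.307 and 0 CPM against 1.78 and 1.46 CPM in WT cells. The TET partner list had 2 higher and 2 lower of 8 tested and 3 higher and 2 lower of 8 tested, with IDH2 lower in NKX2-5 shRNA cells (-1.24 ± 0.14) and D2HGDH higher in ZNF503 shRNA cells (1.13 ± 0.28), the latter lost without ZNF503 shRNA replicate 1 (adjusted p = 0.0564). The methyl donor cycle had 3 higher and 3 lower of 11 tested and 4 higher and 4 lower of 11 tested. AHCY (0.81 ± 0.12) and AHCYL1 (0.78 ± 0.11) were higher in NKX2-5 shRNA cells, and SHMT2 (0.90 ± 0.13) was higher in ZNF503 shRNA cells. The readers had 2 higher and 0 lower of 6 tested (1 without NKX2-5 shRNA replicate 1 or WT replicate 1) and 1 higher and 0 lower of 6 tested (2 without ZNF503 shRNA replicate 1 or ZNF503 shRNA replicate 2), with ZBTB4 higher in both (0.65 ± 0.16 and 0.80 ± 0.16), and ZBTB33 (0.48 ± 0.13) in NKX2-5 shRNA cells, which was lost without NKX2-5 shRNA replicate 1 or WT replicate 1 (adjusted p = 0.0819 and 0.0669). Among the replication genes TOP2A (-2.76 ± 0.13 and -2.04 ± 0.12) and CCNA2 (-2.42 ± 0.13 and -1.72 ± 0.13) had the largest falls in both lines. In NKX2-5 and ZNF503 shRNA cells the list medians were -0.50 and -0.37 for repair, 0.16 and 0.42 for targeting partners, 0.16 and 0.19 for TET partners, 0.0029 and 0.37 for the donor cycle, 0.0086 and 0.21 for readers and -1.72 and -1.19 for replication, beside the shares and medians of all genes given above.

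In ZEB2 shRNA cells at day 6, 5.67% of all genes were higher and 5.33% lower (median 0.012), and every call of these lists was lost without 1 or more of the 4 libraries. There were 0 higher and 0 lower of 13 tested among repair genes (1 without WT replicate 2), 1 higher and 0 lower of 8 tested among DNMT cofactors (0 without ZEB2 shRNA replicate 1 or WT replicate 1), 1 higher and 2 lower of 8 tested among TET partners (0 without ZEB2 shRNA replicate 1 or ZEB2 shRNA replicate 2 or WT replicate 1), 1 higher and 0 lower of 6 tested among readers (0 without ZEB2 shRNA replicate 1 or ZEB2 shRNA replicate 2 or WT replicate 1 or WT replicate 2), 0 higher and 1 lower of 11 tested in the methyl donor cycle (0 without ZEB2 shRNA replicate 1 or ZEB2 shRNA replicate 2 or WT replicate 1, 2 without WT replicate 2), 1 higher and 0 lower of 11 tested among targeting partners (0 without ZEB2 shRNA replicate 1 or ZEB2 shRNA replicate 2 or WT replicate 1 or WT replicate 2) and 1 higher and 0 lower of 14 tested among replication genes (0 without ZEB2 shRNA replicate 2 or WT replicate 1). The list medians were 0.044 for repair, 0.047 for DNMT cofactors, -0.18 for TET partners, 0.032 for readers, -0.0026 for the donor cycle, 0.011 for targeting partners and 0.29 for replication. The largest change among the TET partners was that of CXXC4 (log2 fold change -0.67 ± 0.16, adjusted p = 0.0167), which was lost without either ZEB2 shRNA replicate (adjusted p = 0.159 and 0.0831) or WT replicate 1 (adjusted p = 0.10). DPPA3, above, was lost without ZEB2 shRNA replicate 1 or WT replicate 1 (adjusted p = 0.115 and 0.0534).

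For NKX2-5 shRNA cells of day 10, the TET partner list had 2 higher and 4 lower of 8 tested (median -0.66 against 0.03 over all genes, of which 23.3% were higher and 20.6% lower). IDH3A was at 43.7 and 36.0 CPM against 140.2 and 102 CPM in WT cells (log2 fold change -1.59 ± 0.23, adjusted p = 0.00184), and IDH1 at 447 and 355 CPM against 181 and 131 CPM (log2 fold change 1.37 ± 0.24, adjusted p = 0.00384). In the methyl donor cycle, with 3 higher and 5 lower of 12 tested (3 without WT replicate 3 or WT replicate 4, 5 without NKX2-5 shRNA replicate 1), MAT1A was at 17.7 and 49.2 CPM against 5.19 and 1.85 CPM (log2 fold change 3.19 ± 0.60, adjusted p = 0.00531), and the methionine synthase MTR at 75.2 and 79.9 CPM against 255 and 203 CPM (log2 fold change -1.55 ± 0.19, adjusted p = 0.00114). Hepatic markers were higher in the same libraries, as above, and their part in the MAT1A difference was not tested. DNMT cofactors had 1 higher and 2 lower of 8 tested (6 without NKX2-5 shRNA replicate 2). TRDMT1, an RNA methyltransferase of the same protein family, was lower (log2 fold change -1.47 ± 0.25, adjusted p = 0.00380). DPPA3 differed between the NKX2-5 shRNA libraries, at 20.4 and 2.95 CPM against 0.570 and 0 CPM, and its call was lost without WT replicate 4 (adjusted p = 0.0714). The remaining lists had 0 higher and 1 lower of 13 tested for repair (0 without WT replicate 3, 2 without NKX2-5 shRNA replicate 1 or NKX2-5 shRNA replicate 2), 1 higher and 0 lower of 6 tested for readers (0 without NKX2-5 shRNA replicate 1 or WT replicate 3 or WT replicate 4, 2 without NKX2-5 shRNA replicate 2) and 1 higher and 2 lower of 10 tested for targeting partners (0 without WT replicate 3, 1 without WT replicate 4, 6 without NKX2-5 shRNA replicate 2). The list medians were -0.006 for repair, 0.40 for DNMT cofactors, -0.069 for readers, 0.32 for the donor cycle and -0.12 for targeting partners.

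ZEB2 shRNA cells of day 10 had 0 higher and 3 lower of 8 tested among TET partners (0 without ZEB2 shRNA replicate 3 or ZEB2 shRNA replicate 4 or WT replicate 3, 1 without WT replicate 4), 2 higher and 2 lower of 12 tested in the methyl donor cycle (0 without ZEB2 shRNA replicate 3 or ZEB2 shRNA replicate 4 or WT replicate 3 or WT replicate 4), 2 higher and 0 lower of 10 tested among targeting partners (0 without ZEB2 shRNA replicate 3 or ZEB2 shRNA replicate 4 or WT replicate 3 or WT replicate 4), 1 higher and 0 lower of 8 tested among DNMT cofactors (0 without ZEB2 shRNA replicate 3 or ZEB2 shRNA replicate 4 or WT replicate 4), 1 higher and 0 lower of 6 tested among readers (0 without ZEB2 shRNA replicate 3 or ZEB2 shRNA replicate 4 or WT replicate 3 or WT replicate 4) and 0 higher and 0 lower of 13 tested among repair genes. The list medians were 0.23 for repair, 0.24 for DNMT cofactors, -0.45 for TET partners, -0.12 for readers, -0.20 for the donor cycle and 0.21 for targeting partners, against 0.026 over all genes, of which 10.6% were higher and 7.67% lower. IDH2 was at 107 and 98.7 CPM against 240.1 and 228 CPM in WT cells (log2 fold change -1.19 ± 0.19, adjusted p = 0.00808) and HELLS at 68.0 and 73.4 CPM against 35.2 and 24.2 CPM (log2 fold change 1.25 ± 0.25, adjusted p = 0.0167). The groups did not overlap for either gene, but IDH2 lost its call without any of the 4 libraries (adjusted p = 0.0545 to 0.122) and HELLS without either ZEB2 shRNA replicate (adjusted p = 0.104 and 0.131) or WT replicate 4 (adjusted p = 0.0964).

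Germline genes that are known to be silenced by promoter methylation reached at most 19.2 CPM in any library, for STK31 in NKX2-5 shRNA cells at day 2. Of the 9 listed, all with a row, 4 passed the filter over the WT time course, with 0 higher and 2 lower at day 10 than at day 0. At day 6 the list had 1 higher and 0 lower of 3 tested in NKX2-5 shRNA, 1 higher and 0 lower of 3 tested in ZEB2 shRNA and 1 higher and 1 lower of 3 tested in ZNF503 shRNA cells, and at day 10 1 higher and 0 lower of 2 tested in NKX2-5 shRNA and 0 higher and 0 lower of 2 tested in ZEB2 shRNA cells, all from genes under 2 CPM in these libraries, beside the shares of all genes given above. Of these knockdown calls only that of TDRD1 in NKX2-5 shRNA cells at day 6 was kept with each library left out. TDRD1 in ZEB2 shRNA cells was lost in 3 of 4 such fits (adjusted p = 0.0725 to 0.153), MAEL, the lower gene in ZNF503 shRNA cells, in 3 of 4 (adjusted p = 0.0818 to 0.169), and STK31 in NKX2-5 shRNA cells at day 10 without either WT replicate (adjusted p = 0.115 and 0.0510). TDRD1 in ZNF503 shRNA cells was lost in 2 of 4 (adjusted p = 0.304 and 0.334), by DESeq2 (adjusted p = 0.0663), without the filter (0.0553) and with the lowest-numbered row (0.0502). DAZL, an RNA-binding protein of germ cells, was at 2.44 and 1.69 CPM in WT cells at day 0 and had 0 counts in both libraries at day 10. TDRD1, of the piRNA pathway, was at 3.26 and 4.19 CPM at day 0, and at day 10 it had 0 counts and 1 count in the libraries. At day 6 TDRD1 was at 0.811 and 0.741 CPM in NKX2-5 shRNA cells against 0.0434 and 0 CPM in WT cells, where the WT libraries held 1 count and 0 counts. SYCE1, ASZ1, SYCP3, TEX101 and DDX4 did not exceed 1 CPM in any library.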

How the data were processed

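Per the study's methods, stranded total RNA libraries were sequenced as paired ends, aligned to hg19 (GRCh37) with TopHat 2.0.14 (Bowtie 2.2.1.0, SAMtools 0.1.19.0) with up to 2 mismatches and only the best hit kept, and counted per RefSeq region with RSeQC. The authors deposited these raw counts, with no normalization. Whether counting used strand is not stated, so overlapping and antisense genes cannot be told apart. Rows of the same gene share reads. In 4 of the 34 columns (day 10, replicates 1 and 2 of the ZEB2 shRNA and WT groups) the values ran 1077 rows past the 41627 accessions, so those columns were left out. Of the accessions, 40285 (96.8%) were matched to 23189 symbols, and they held 97.1% of counts. The row with the largest total was kept per gene.

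Tests used edgeR 4.0.16 in R 4.3.3 (TMM, filterByExpr, glmQLFit and glmQLFTest), with separate fits per day, per line and per interaction, adjusting by Benjamini-Hochberg across every tested gene. A call is 5% FDR. The SE is the log2 fold change over the square root of F. Tested on counts simulated for NKX2-5 shRNA against WT cells at day 6 (16170 genes, 200 changed), 61% of 2-fold and 100% of 4-fold changes were recovered. The simulation gave every gene the same dispersion and changed far fewer genes than were called in the data. These shares hold for that setting only. Replicate libraries differed by more than sampling noise in every group (chi-square per degree of freedom 5.33 to 107), and all were kept as separate samples. Counting intervals and limits cover counting error only. Genes and the 14 lists were chosen with earlier results of these data known. List genes are named where they had the largest changes at 5% FDR in the WT time course or in the knockdowns at days 6 and 10, and some named by this rule are not reported here. Alternatives were DESeq2 1.42.0, DESeq2 size factors, library totals alone, no filter, the row with the lowest NM number, a replicate block, 1 fit of all libraries, the study's thresholds, and each library left out. Levels and figures used Python 3.11.15, pandas 2.3.3, numpy 2.4.6 and matplotlib 3.10.9.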

Additional observations from a re-analysis of the deposited data

Results flagged for a closer look

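The results below were picked out because the change from day 0 to day 6 differed between a knockdown line and WT cells by the interaction term of edgeR's quasi-likelihood test, with 2 libraries a group. In NKX2-5 shRNA cells the difference of log2 fold changes was 1.01 ± 0.12 (SE) for DNMT3A, 1.13 ± 0.20 for DNMT3B and -0.85 ± 0.23 for UHRF1. For ZNF503 shRNA cells it was 0.56 ± 0.12 for DNMT3A, 1.33 ± 0.20 for DNMT3B, 0.36 ± 0.13 for TET1 and -1.79 ± 0.17 for TET2. ZEB2 shRNA cells had -0.47 ± 0.12 for DNMT3A. The DNMT3B values of the NKX2-5 and ZNF503 lines have the same sign, and those lines share the WT libraries they were compared with. In NKX2-5 shRNA cells DNMT3A and DNMT3B were already below WT cells at day 0, and their values hold that difference too. DNMT3B in ZNF503 shRNA cells was also below WT cells at day 0, though not called in the main fit. Its value holds that difference as well. The values of TET1 in ZNF503 shRNA and DNMT3A in ZEB2 shRNA cells are the smallest of the 8. Both lost their calls in some of the fits with a library left out. Groups of 2 libraries are too small for a test of outlying libraries.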

How the results depend on the processing

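No called value reversed its sign under any alternative. With DESeq2 size factors the number of the 6 genes called stayed within 1.5 times in all 27 comparisons. The cause of each move below was not tested. With library totals alone, 5 in place of 3 were called in NKX2-5 shRNA against WT cells at day 2, 2 in place of 4 in ZEB2 shRNA against WT cells at day 10, and 5 in place of 3 in ZEB2 shRNA cells from day 6 to day 10. In ZNF503 shRNA against WT cells at day 0, where UHRF1 was the only call, 2 were called with no filter on low counts, by DESeq2 and with the lowest-numbered row, and 0 in 1 fit of all libraries. DESeq2 called 1 in place of 0 in ZEB2 shRNA against WT cells at day 2. The ZEB2 shRNA interaction gave 0 in place of 1 with no filter and in 1 fit of all libraries, and that fit called 1 in place of 2 in ZNF503 shRNA against WT cells at day 2. The fit of all libraries also called fewer genes in all, such as 314 against 664 in ZEB2 shRNA cells at day 0 and 364 against 1272 in ZNF503 shRNA cells at day 0, while the replicate block called 410 and 698 there and DESeq2 1165 and 1985. The study's fold thresholds, stricter by construction, left 1 gene in NKX2-5 shRNA against WT cells at day 0 and from day 0 to day 2 in WT, NKX2-5 shRNA and ZEB2 shRNA cells, 2 from day 0 to day 6 and from day 0 to day 10 in WT cells, and 0 in every other comparison.

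Samples with the same replicate number did not deviate together in every pair (r of their deviations from the group means -0.33 to 0.39), so the numbers were not taken as pairs. A replicate block, possible in 23 of 27 comparisons (not for those of day 10 in which groups share no numbers), raised the count in NKX2-5 shRNA against WT cells at day 2 from 3 to 5 and lost no call of these genes, but lost list calls such as that of TDRD1 in ZNF503 shRNA against WT cells at day 6 (adjusted p = 0.0668). With a library left out, the counts ranged 3 to 5, 0 to 1 and 0 to 0 against WT cells at day 0 (NKX2-5, ZNF503 and ZEB2 shRNA), 2 to 3, 1 to 2 and 0 to 0 at day 2, 3 to 5, 4 to 5 and 1 to 1 at day 6, and 2 to 5 and 0 to 0 at day 10 (NKX2-5 and ZEB2 shRNA). From day 0 to day 2 they ranged 4 to 5 in WT, 2 to 3 in NKX2-5 shRNA, 6 to 6 in ZEB2 shRNA and 3 to 3 in ZNF503 shRNA cells, from day 2 to day 6 4 to 4, 2 to 3, 3 to 4 and 5 to 6, and from day 6 to day 10 4 to 6, 2 to 4 and 2 to 3 in the lines measured. The interactions gave 3 to 3, 0 to 1 and 3 to 4. In each such fit the group with 1 library left is assumed to vary like the others. Depth limits what can be said of DNMT3L, at 0 counts in 27 of 30 libraries, and of the germline genes.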

Other observations

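Germline genes outside the naming rule moved early, and they were chosen here after their values were seen. STK31, a gene known from germ cells, was at 0.239 and 0.495 CPM in WT cells at day 0 and 18.7 and 9.94 CPM at day 2 (log2 fold change 5.31 ± 0.43, adjusted p = 9.52e-06). The day 2 levels were 19.2 and 13.7 CPM in NKX2-5 shRNA, 16.1 and 15.1 CPM in ZEB2 shRNA and 2.24 and 1.94 CPM in ZNF503 shRNA cells, the last below WT cells (log2 fold change -2.82 ± 0.27, adjusted p = 2.35e-06). DAZL went from 2.44 and 1.69 CPM to 0.129 and 0.123 CPM over the same step in WT cells, where the WT libraries held 4 and 2 counts. The ZNF503 shRNA libraries of day 2 were at 1.47 and 0.903 CPM, and the call against WT cells was lost without replicate 1 of the knockdown (adjusted p = 0.0788).

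MAEL, of the piRNA pathway, was higher in undifferentiated NKX2-5 shRNA cells, at 9.09 and 8.98 CPM against 1.06 and 0.443 CPM in WT cells, 0.200 and 0.463 CPM in ZEB2 shRNA and 0.0896 and 0.109 CPM in ZNF503 shRNA cells (log2 fold change 3.56 ± 0.38, adjusted p = 0.000239 against WT cells). TDRD1 in the same cells was at 7.45 and 5.89 CPM against 3.26 and 4.19 CPM (log2 fold change 0.81 ± 0.22, adjusted p = 0.0254, lost without NKX2-5 shRNA replicate 1 or either WT replicate), and in ZNF503 shRNA cells, it was at 0.940 and 1.04 CPM (log2 fold change -1.91 ± 0.24, adjusted p = 0.00131). MAEL was also higher in NKX2-5 shRNA than in WT cells at day 2 (log2 fold change 5.02 ± 0.53, adjusted p = 3.46e-05). By day 6 MAEL was at 0.479 and 0.280 CPM in NKX2-5 shRNA cells against 0.955 and 0.600 CPM in WT cells.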
